A study of Arabidopsis thaliana with 13 samples.

Results

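The probe sets described here, each a measure of 1 transcript or of a few similar ones, stood higher in Arabidopsis siliques whose seeds had extra maternal genomes than in siliques whose seeds had extra paternal genomes. They were chosen by the signals of the interploidy crosses. A probe set belonged to the group if, with signals under 20 raised to 20, the lowest of the 4 maternal-excess arrays (4xX2x and 6xX2x) was at least 1.5 times the highest of the 4 paternal-excess arrays (2xX4x and 2xX6x). The rule was met by 101 of 22746 probe sets (0.444%). Of 4 genes left out in advance, 3 had met it, and 98 probe sets remained as members. The platform annotation or the study's locus table gave 1 gene for 46 of the members, and 52 had no gene name here. Because the 8 arrays of the interploidy crosses chose the members, their signals on those arrays are described without a test. The arrays of fis1X2x, msi1 and 2xX2x took no part in the choice.

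In flowering plants the endosperm, the nourishing tissue of the seed, normally receives more maternal than paternal genomes. A cross between plants of different ploidy shifts this balance. In Arabidopsis, seeds with maternal excess are small and their endosperm stops dividing and forms cell walls early, whereas seeds with paternal excess have an endosperm that goes on dividing. The balance is read in part through imprinted genes, which are expressed from only 1 parental copy, and in part through a Polycomb complex of the endosperm that silences genes by histone methylation. MEDEA, also named FIS1, and MSI1 are subunits of that complex. Loss of either from the mother lets endosperm form without fertilisation.

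RNA from whole siliques was hybridised to 13 Affymetrix ATH1 arrays, which carry short probes for most Arabidopsis genes. Crosses are written mother first, so that 4xX2x is a tetraploid mother pollinated by a diploid father. The maternal-excess crosses were 4xX2x, of C24 plants, and 6xX2x, of a hexaploid Col-1 mother and a C24 father. The paternal-excess crosses were 2xX4x, of C24 plants, and 2xX6x, of a C24 mother and a hexaploid Col-1 father. The fis1X2x cross had a diploid Ler mother homozygous for fis1-3 and a diploid C24 father. The msi1 siliques carried the msi1-2 allele in C24, were not pollinated, and were collected at day 7 after the flowers opened. The balanced cross 2xX2x was of C24 plants. All crosses were collected at day 5 after pollination. There were 2 arrays for each of the 6 crosses and 1 array for msi1, and the siliques of several plants were pooled for each. The C24 mothers were made male sterile by the A9-barnase transgene, which kills the tapetum of the anther, and the Col-1 mother was emasculated by hand. The study's methods describe the msi1 plants as male-sterile progeny of a cross of msi1 with C24, so that part of their ovules could be wild type, whereas the sample label calls the mutant homozygous. Accession and ploidy cannot be told apart in 6xX2x and 2xX6x, nor accession and mutation in fis1X2x. In the maternal-excess crosses the silique wall and the seed coat, which are the mother's own tissue, also carried the extra genomes. In a whole silique, fewer cells of a type and less RNA per cell cannot be told apart.

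Values are MAS5 signals, a linear brightness averaged over the short probes of a probe set and scaled to the same trimmed mean on every array. The median signal of all probe sets lay between 38.0 and 46.4 on the 13 arrays. The ratio of 3′ to 5′ signal of the actin control is a sign of RNA or cDNA truncation. It was 28.5 on 6xX2x replicate 1 and 2.81 to 17.0 on the others. The crosses differed in it, with 5.48 and 2.81 in 4xX2x and 12.9 on 6xX2x replicate 2. It was 16.6 and 17.0 in fis1X2x, 8.19 in msi1 and 10.6 and 13.6 in 2xX2x. The same ratio for GAPDH was 6.93 on 6xX2x replicate 1 and 1.20 to 2.84 on the others. The mutated FIS1 gene itself (MEA) had 2.5 and 1.6 in fis1X2x, against 4.0 and 2.1 in 2xX2x, too dim to check the labels, and the MSI1 signal was not analysed here. Without 6xX2x replicate 1 the rule was met by 127 probe sets. Leaving out any array can only add probe sets under this rule, so that count says nothing of RNA quality. The part of RNA quality in the members' signals was not tested. Each of the 11 lists of marker and pathway genes consulted (endosperm, embryo, seed coat, silique wall, photosynthesis, mitosis, seed storage, hormone and stress responses) had 0 of its genes among the members, although only 27 genes of all lists had a measured probe set of their own above the filter. The lists of salicylic acid and defence and of phosphate starvation had 0 such genes, so they could not be compared with the members.

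The members were of moderate brightness. Their median signal was 172 and 158 in 4xX2x and 164 and 142 in 6xX2x, against 41.7 and 39.5 in 2xX4x and 39.3 and 41.8 in 2xX6x. The ratio that chose them ran from 1.5 to 6.45 with a median of 1.80, and 34 members reached 2. Over all 4 arrays of each side the fold, taken on the scale log2(signal + 7.4), had a median of 2.84. All fold changes below are on this scale, which understates the change of dim probe sets.

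The 12 named members with the widest gap are given by the roles known for them. AT2G37130, a class III peroxidase, had signals of 428.0 and 388.0 in 4xX2x and 305.1 and 427.0 in 6xX2x, against 47.3 and 1.5 in 2xX4x and 11.3 and 5.1 in 2xX6x. The universal stress protein AT3G11930 had 454.2, 547.6, 453.9 and 534.3 on the maternal-excess arrays, against 72.5 to 84.0 on the paternal-excess arrays. As the rule requires of every member, both were higher on each maternal-excess array than on any paternal-excess array. AT2G34810, a berberine bridge enzyme-like oxidase, had 178.9 to 286.8 on the maternal-excess arrays and 46.6 to 64.5 on the paternal-excess arrays. AT4G19530, a resistance protein of the TIR-NBS-LRR class that recognises pathogens inside the cell, was dimmer, with 57.7 to 106.8 against 10.8 to 20.8.

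**Figure D1:**
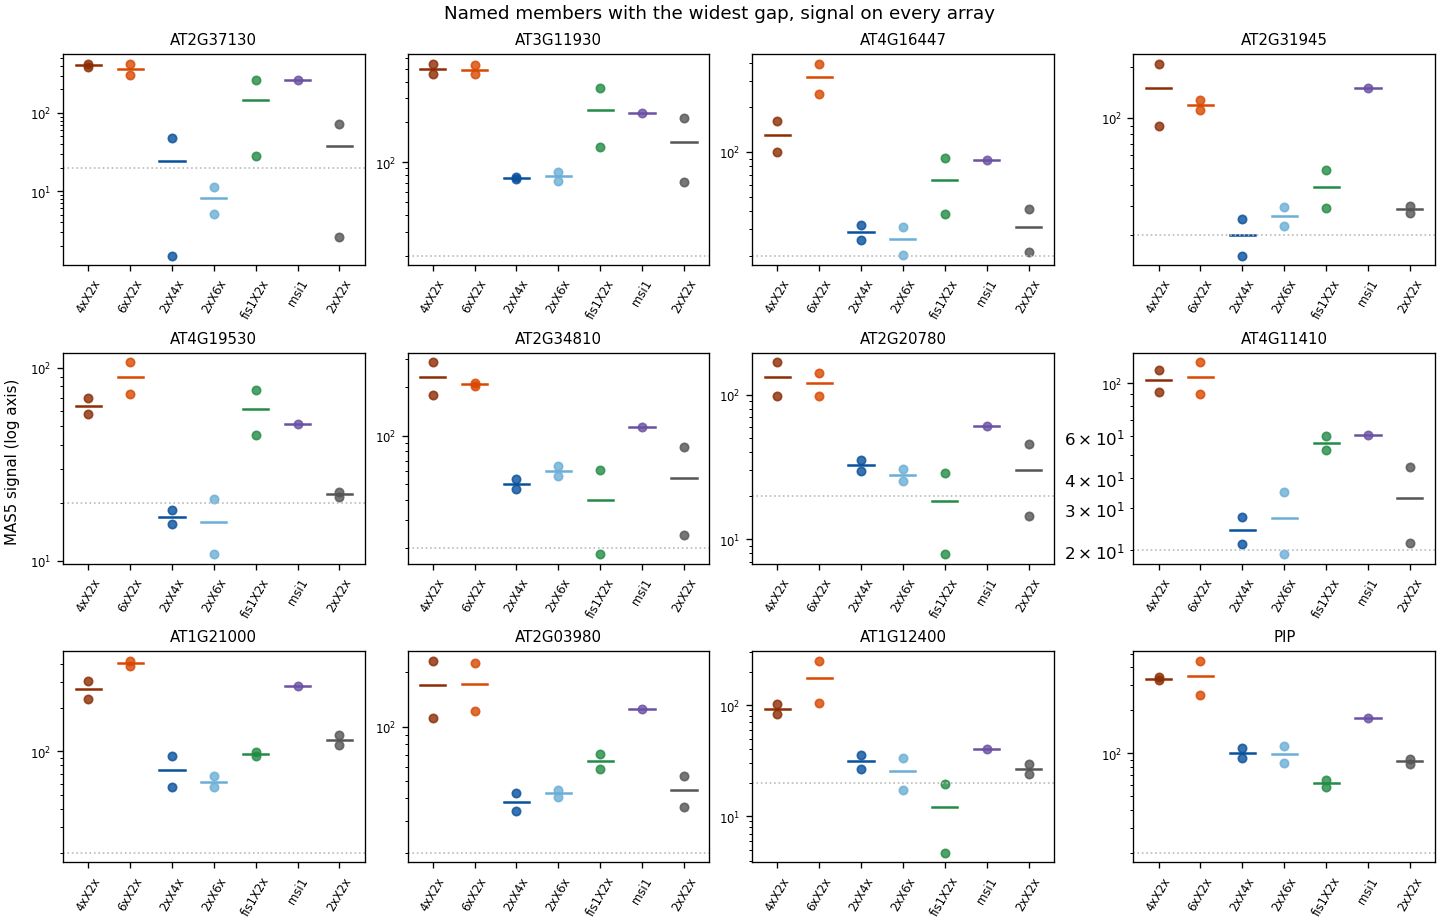
MAS5 signal (log axis) of the 12 named members with the widest gap, on every array; points are arrays, short lines are group means, and the dotted line is the floor of 20. The 4 arrays of 4xX2x and 6xX2x lie above all arrays of 2xX4x and 2xX6x in every panel, as the rule requires, while the 2xX2x and fis1X2x arrays of AT2G37130 and AT3G11930 lie far apart from their own replicate.

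A further member of this set, AT1G21000, a zinc-binding transcription factor of the PLATZ family, had 230.0 to 419.7 on the maternal-excess arrays, against 56.7 to 92.5 on the paternal-excess arrays. The proline iminopeptidase PIP, which removes proline from the start of peptides, had 254.4 to 444.4 against 86.1 to 112.0. The sugar and polyol transporter AT2G20780 had 98.4 to 168.1 against 25.5 to 35.5. The short-chain dehydrogenase AT4G11410, the GDSL lipase AT2G03980 and AT1G12400, a subunit of the transcription and repair factor TFIIH, had rule ratios of 2.58, 2.48 and 2.34. AT4G16447 and AT2G31945 came next after AT2G37130 and AT3G11930 by gap, with ratios of 3.11 and 3.05, and no role is given for them here.

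At the other end of the rule, the named members closest to the limit were AT3G14280 (ratio 1.5), the vacuolar invertase ATBETAFRUCT4 (1.51), the phosphoglycerate mutase family gene AT1G22170 (1.51) and AT1G52720 (1.53). The nearest single-gene probe sets just outside were AT2G14880 (1.498), AT1G23440 (1.49), AT5G11090 (1.48) and AT4G17790 (1.47). The maternal-excess signals of ATBETAFRUCT4, an enzyme that splits sucrose in the vacuole, were 780.9, 436.8, 626.6 and 821.6, and its paternal-excess signals were 156.6, 191.5, 289.6 and 188.9. Its ratio rests on the arrays of the opposite sides that lie nearest each other, 4xX2x replicate 2 and 2xX6x replicate 1.

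The maternal-excess crosses were not equal in every member. Both 6xX2x arrays lay below both 4xX2x arrays in 30 members (30.6%, against 23.3% of all probe sets above the filter) and above them in 14 (14.3%, against 23.5%). MFT (AT1G18100, listed as E12A11), a relative of the flowering signal FT that acts in seed germination, had 33.4 and 30.7 in 6xX2x but 317.9 and 265.3 in 4xX2x, against 7.4 to 16.0 on the paternal-excess arrays. AT4G04460, the vacuolar aspartic protease PASPA3 known from programmed cell death in plant development, had 398.2 and 390.1 in 6xX2x, against 1304.6 and 1227.1 in 4xX2x. The mucilage galactosyltransferase AT2G22900 of the seed coat had 160.0 and 144.1 in 6xX2x, against 498.6 and 434.1 in 4xX2x. These 3 genes thus met the rule in both crosses while being several times brighter with the tetraploid C24 mother than with the hexaploid Col-1 mother. PLATZ factor AT1G21000 ran the other way, with 419.7 and 388.6 in 6xX2x against 305.5 and 230.0 in 4xX2x. Between the paternal-excess crosses the counts were equal, since 2xX6x lay above 2xX4x in 17 members (15% of all probe sets) and below it in 17 (16.8%).

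To see on which side the balanced cross falls, each member was given a place on the log2 scale between the mean of the paternal-excess arrays, set to 0, and the mean of the maternal-excess arrays, set to 1. The median place was 0.10 for fis1X2x, 0.59 for msi1 and 0.15 for 2xX2x. In most members, therefore, the balanced cross lay near the paternal-excess level. Its mother was diploid and of the same accession as those of the paternal-excess crosses, whereas the maternal-excess mothers were polyploid. Genome balance of the seed and ploidy of the mother thus cannot be told apart in the place of the balanced cross. The place of 2xX2x was over 0.5 in 12 members and under 0 in 33. Both 2xX2x arrays were at or below the brightest paternal-excess array in 29 members, between the sides in 8, and at or above the dimmest maternal-excess array in 2. In the other 59 the arrays fell on different sides of one of these limits.

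**Figure D2:**
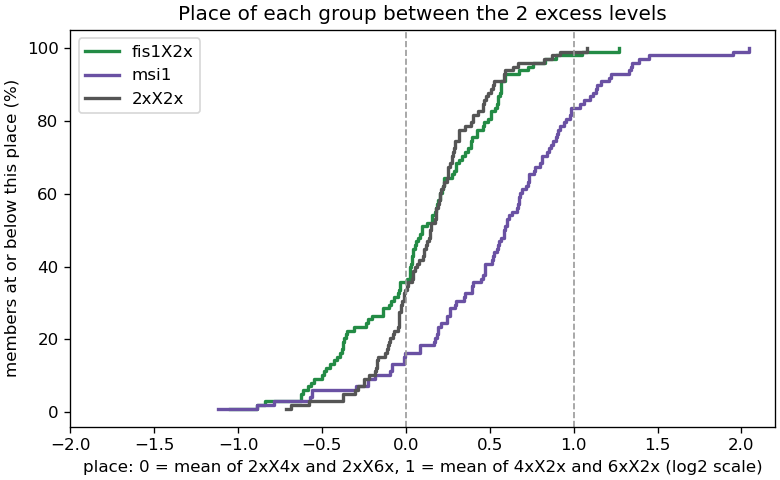
Cumulative share of the 98 members (y axis, %) by their place between the paternal-excess mean (0) and the maternal-excess mean (1) on the log2 scale, for fis1X2x, msi1 and 2xX2x. The fis1X2x and 2xX2x curves cross 50% at 0.10 and 0.15 and the msi1 curve at 0.59.

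Named members nearest the paternal-excess level in 2xX2x included AT4G18425, a membrane protein of the DUF679 family, with 42.3 and 64.0 in 2xX2x beside 41.9 to 78.8 on the paternal-excess arrays. AT5G02940, of the POLLUX-like ion channel family, had 60.0 and 94.6 beside 54.2 to 140.6. AT4G16447, AT1G12400 and AT4G23680 were the others, and all 5 had a place within 0.05 of 0. Those nearest the maternal-excess level were AT1G64800, PASPA3, the germin-like protein AT5G39130, the formamidase-like AT4G37550 and AT1G33055. AT5G39130 had 155.3 and 186.0 in 2xX2x, which lay between 209.2 to 283.6 with maternal excess and 75.6 to 131.0 with paternal excess. PASPA3 had 233.7 and 590.9 in 2xX2x, so that its place of 0.59 is the mean of arrays far apart.

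Such splits between replicates were frequent among the members in the crosses that the rule did not use. The median absolute log2 difference between the replicates was 0.50 in fis1X2x and 0.64 in 2xX2x over the members, against 0.36 and 0.35 over all probe sets above the filter. It was 0.26 to 0.32 over the members in the 4 crosses that chose them, and the rule favours small differences there. Of the members, 24 in fis1X2x and 30 in 2xX2x had replicates at least 2-fold apart. The peroxidase AT2G37130 had 28.3 and 261.0 in fis1X2x, against 73.1 and 2.6 in 2xX2x. The aluminium-induced protein AT4G27450 had 34.0 and 203.6 in fis1X2x, against 158.5 and 41.9 in 2xX2x. In 5 members fis1X2x replicate 2 and 2xX2x replicate 1 were the high arrays, in 5 others it was fis1X2x replicate 1 and 2xX2x replicate 2, and in 2 it was replicate 2 of both. A mean of a cross can therefore rest on 1 of its arrays in these genes.

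The fis1X2x cross joins a mother mutant in FIS1 to a father of the same ploidy. Its mother was Ler and that of 2xX2x was C24, so that mutation and maternal accession cannot be told apart in what follows. No common shift was seen. The median difference of fis1X2x minus 2xX2x was -0.01 on the log2 scale with quartiles of -0.46 and 0.48, against -0.06 over all 15982 probe sets above the filter, and 47 members lay above 0 and 51 below. In limma's test, with Benjamini-Hochberg adjustment over all these probe sets, 8 members differed at an adjusted p under 0.05 (8.16% of the members, against 2.18% of all), 3 being higher and 5 lower (0.901% and 1.28% of all). The test's spread came in part from the 8 arrays that chose the members. Fitted on the 4 arrays of fis1X2x and 2xX2x alone, 1 member was called (1.02%, against 0.851% of all). In the fit of all 12 arrays, 23 members had an unadjusted p under 0.05 in limma's test (23.5%, against 12% of all), 7 higher and 16 lower. The rule favours small replicate differences on the 8 arrays that chose the members, which can raise the members' shares in that fit. This count was not made in the fit of the 4 arrays. Both fis1X2x arrays lay above both 2xX2x arrays in 13 members (13.3%, against 16.1% of all) and below them in 25 (25.5%, against 23.3%).

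Marker genes also differed between these crosses. The summed signal of 5 genes of mitosis and cytokinesis was 185.0 to 226.8 in fis1X2x, against 1026 to 1041 in 2xX2x, and 2 of the 5 were called lower. Most of the 2xX2x sum came from SYP111, with 697.9 and 709.2 in 2xX2x, against 42.9 and 57.3 in fis1X2x. The other genes of this list were lower by 0.70 to 1.44 on the log2 scale. The summed signal of 4 photosynthesis genes was 16580 to 18130, against 11300 to 12170, with 0 of the 4 called. The endosperm gene MPC had 268.7 and 158.3 in fis1X2x, against 14.8 and 5.0 in 2xX2x (log2 difference 3.69, limma's adjusted p = 0.0011), and the endosperm regulator AGL62 was higher by 2.01 (limma's adjusted p = 0.0356). The other endosperm gene measured above the filter, AGL80, ran the other way without passing the threshold. It had 4.1 and 17.8 in fis1X2x, against 45.3 and 66.2 in 2xX2x (log2 difference -1.87, limma's adjusted p = 0.0971). LEC1, a regulator of embryo development, had 3.5 and 54.0, against 255.2 and 410.5 (log2 difference -3.68, limma's adjusted p = 0.0119). Their part in the members' fis1X2x signals was not tested.

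AT4G23670, a major latex protein-like protein of a plant family related to defence proteins, was the only named gene among the 8. Its signal was 1534.2 and 1762.6 in fis1X2x, against 528.7 and 811.1 in 2xX2x, and 1208.6 to 2010.0 with maternal excess. The fis1X2x signals thus lay within the range of the maternal-excess arrays and did not overlap those of 2xX2x. It rose by 1.32 on the log2 scale (SE 0.29, limma's adjusted p = 0.0442), a call that 4 of 23 other settings kept.

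Unnamed probe sets made up the other 7. Probe set 266415_at had 41.7 and 114.0 in fis1X2x, against 4.3 and 7.5 in 2xX2x, and was higher by 2.55 (SE 0.46, limma's adjusted p = 0.0158), a call kept in 18 of 23 other settings. Its 2xX2x signals are under the floor of 20, and with signals raised to that floor the difference was 1.79 and the call was lost (limma's adjusted p = 0.0951). Probe set 254239_at had 1858.5 and 2736.3 in fis1X2x, against 864.6 and 378.3 in 2xX2x, and was higher by 1.96 (SE 0.35, limma's adjusted p = 0.015), kept in 20 of 23. Both fis1X2x arrays of 254239_at reached the maternal-excess signals of 1564.4 to 1972.9. The firmest difference was that of 250611_at, with 3.4 and 2.7 in fis1X2x, against 199.1 and 204.3 in 2xX2x, which fell by 4.32 (SE 0.52, limma's adjusted p = 0.00114) and was called in 23 of 23 other settings. Its fis1X2x signals are under the floor, so that the size depends on the offset, and the log2 difference ran from -6.06 to -3.33 over those settings. In this probe set 2xX2x stood among the maternal-excess arrays, which had 142.1 to 441.4. Probe set 256158_at, with 20.7 and 25.1 in fis1X2x against 113.6 and 74.8 in 2xX2x, had the same order and fell by 1.72 (SE 0.33, limma's adjusted p = 0.0215), kept in 19 of 23. The remaining 3 were lower by 1.33 to 1.38, and their calls were kept in 5 (245456_at), 17 (259616_at) and 19 (245141_at) of 23. In the fit of the 4 compared arrays alone, and also without fis1X2x replicate 2, 250611_at was the only member called.

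**Figure D3:**
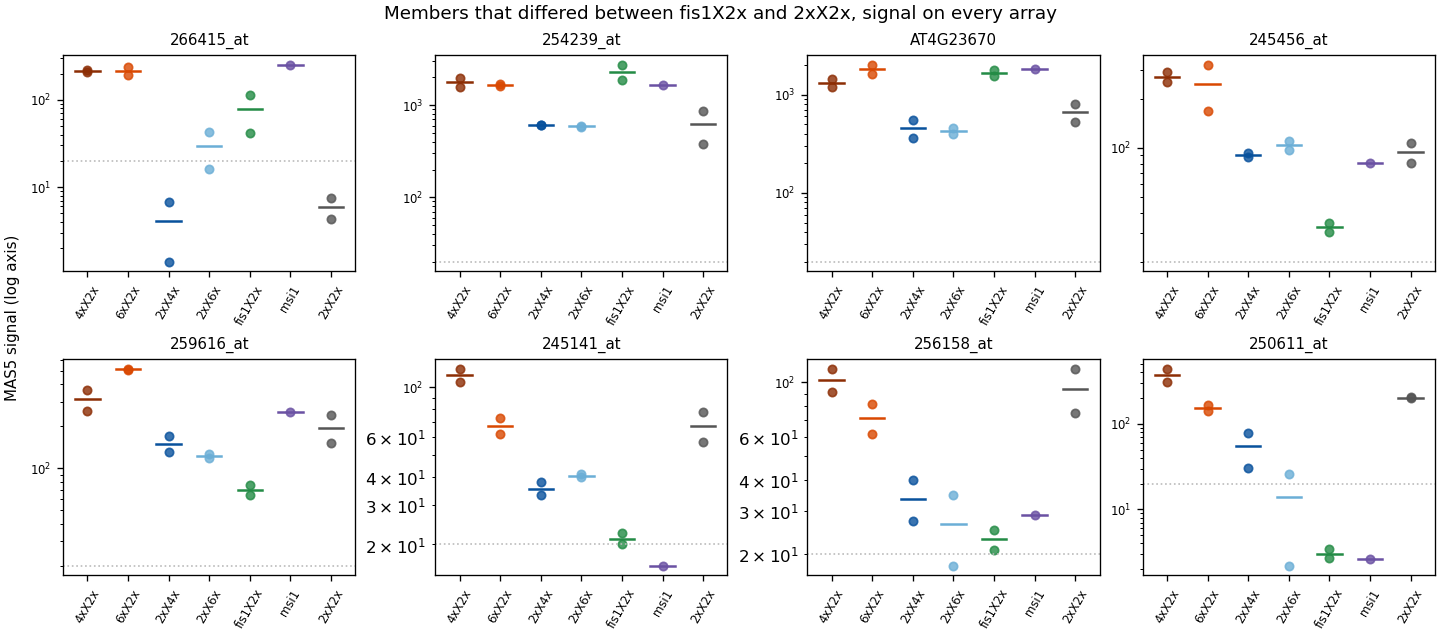
MAS5 signal (log axis) of the 8 members that differed between fis1X2x and 2xX2x in limma's test, on every array; points are arrays, short lines are group means, and the dotted line is the floor of 20. In the 3 higher members fis1X2x lies above 2xX2x, and 250611_at shows the widest gap, with fis1X2x and msi1 under 4 and 2xX2x near 200.

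Among named members that did not pass the test, the resistance protein AT4G19530 had 44.8 and 76.9 in fis1X2x, against 22.8 and 21.3 in 2xX2x (log2 difference 1.17, limma's adjusted p = 0.134). The pectin methylesterase or invertase inhibitor AT1G14890 had 349.8 and 295.6, against 155.9 and 81.0 (log2 difference 1.45, limma's adjusted p = 0.0765). The receptor-like kinase AT5G59700 had 70.9 and 80.1, against 46.4 and 39.7 (log2 difference 0.72, limma's adjusted p = 0.304). In each of these the fis1X2x and 2xX2x arrays do not overlap. Other named members were lower in fis1X2x without overlap. Among them were AT3G61930 (log2 difference -1.20, limma's adjusted p = 0.221), AT1G24030 (log2 difference -1.45, limma's adjusted p = 0.255) and CSA1 (log2 difference -1.03, limma's adjusted p = 0.266). AT3G61930, AT1G24030 and CSA1 each had a fis1X2x signal under the floor of 20.

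The unfertilised msi1 siliques gave the clearest pattern among the samples that had no part in choosing the members. Their median signal over the members was 89.3, against 45.3 and 58.1 in 2xX2x. The log2 difference of msi1 minus the mean of 2xX2x had a median of 0.69 with quartiles of 0.15 and 1.28, against -0.04 over all probe sets above the filter, and lay above 0 in 78 members and below in 20. With 1 msi1 array there is no test, and size was used instead. The msi1 array lay at least 1 on the log2 scale above both 2xX2x arrays in 21 members (21.4%, against 3.52% of all) and at least 1 below both in 7 (7.14%, against 6.04% of all). In 37 members msi1 was at or above the dimmest maternal-excess array, in 39 between the sides, and in 22 at or below the brightest paternal-excess array.

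**Figure D4:**
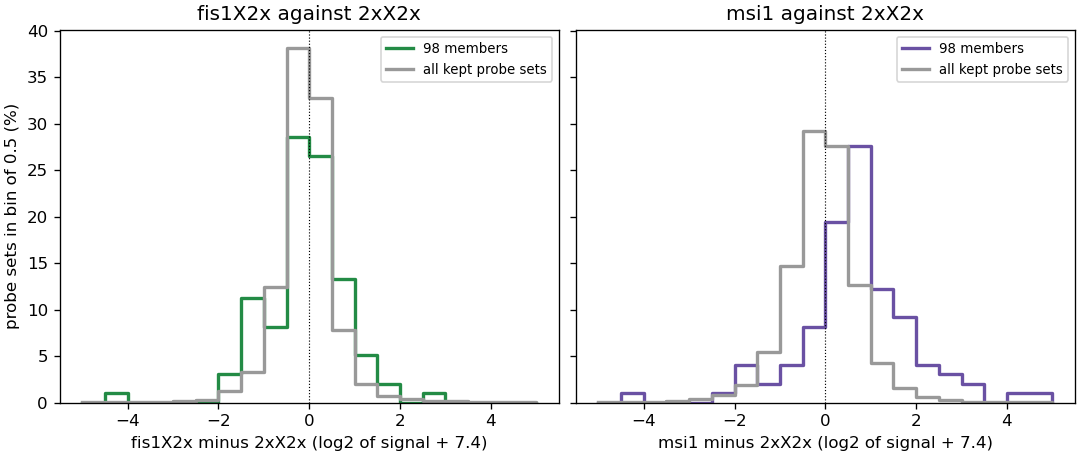
Distribution of the log2 difference of fis1X2x (left) and of msi1 (right) from the mean of 2xX2x, as the percentage of probe sets in bins of 0.5, for the 98 members (coloured) and all probe sets above the filter (grey). The members' fis1X2x differences centre on -0.01, and their msi1 differences lie to the right of the grey curve, with a median of 0.69.

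The msi1 siliques, which had formed without pollination and were dated from flower opening, also differed from 2xX2x in several markers. Their summed signal of 4 measured photosynthesis genes was 21290, against 11300 to 12170 in 2xX2x. That of 3 drought and abscisic acid response genes was 3916, against 842.9 to 1162 in 2xX2x. Most of this sum came from COR47, with 2662.6 in msi1, against 274.4 and 181.7 in 2xX2x, whereas DI19 had 843.7 in msi1, against 519.3 and 818.9. That of 5 genes of mitosis and cytokinesis was 160.1, against 1026 to 1041 in 2xX2x. Only 1 embryo gene was measured above the filter, LEC1, with 8.3 in msi1, against 255.2 and 410.5 in 2xX2x, and the msi1 value lay between those of the fis1X2x arrays. The maternal-excess crosses had photosynthesis sums of 9648 to 15940, drought sums of 1092 to 1636 and mitosis sums of 312.8 to 418.7, and the part of any of these in the members' signals was not tested.

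Of the 21 members high in msi1, 13 were named. AT4G23680, the second major latex protein-like gene, had 227.7 in msi1, against 1.3 and 2.5 in 2xX2x, and 40.1 to 403.4 with maternal excess. It was at or below 4.2 on every array of the other crosses, under the floor of 20. It lies next to AT4G23670 on chromosome 4, with no locus between them in the TAIR10.1 gene table. Probe sets of similar neighbours can share some signal, which was not tested. In fis1X2x AT4G23680 had 0.5 and 0.4, where AT4G23670 had 1534.2 and 1762.6. AT4G23670 itself had 1837.7 in msi1.

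The peroxidase AT2G37130 had 262.0 in msi1, against 73.1 and 2.6 in 2xX2x. The lectin JAL23, of the sugar-binding jacalin family, had 52.6, against 1.2 and 8.6. Together with the latex protein-like genes these are 4 of the 8 named stress and defence proteins. Another 1 of the 8, the germin-like AT5G39130, lay at least 1 below both 2xX2x arrays. The resistance protein CSA1, of the TIR-NBS-LRR class, had 40.8 in msi1, against 7.4 and 12.5 in 2xX2x, and was the only 1 of 5 kinases and resistance proteins past the size limit, although all 5 were above the 2xX2x mean. The remaining 4, AT4G19530, AT5G59700, the leucine-rich repeat kinase AT4G37250 and the protein kinase AT1G24030, had log2 differences of 0.99, 0.97, 0.56 and 0.24.

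Among genes of sugar and cell wall metabolism, AT1G14890, whose family inhibits invertases or pectin methylesterases, had 844.0 in msi1, against 155.9 and 81.0 in 2xX2x. The vacuolar invertase ATBETAFRUCT4 had 633.9, against 134.2 and 269.1. These were 2 of 5 such genes, and the msi1 signal of the invertase lay within its maternal-excess range of 436.8 to 821.6. AT4G18425 had 334.8, against 42.3 and 64.0, and AT2G31945 had 150.0, against 29.9 and 27.0. The PLATZ factor AT1G21000, the GDSL lipase AT2G03980, the LURP-one-like AT2G05910 and the BRR2-like splicing helicase AT2G42270 were at least 1 above both 2xX2x arrays as well. These roles were assigned after the values were seen, so their counts are a description.

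**Figure D5:**
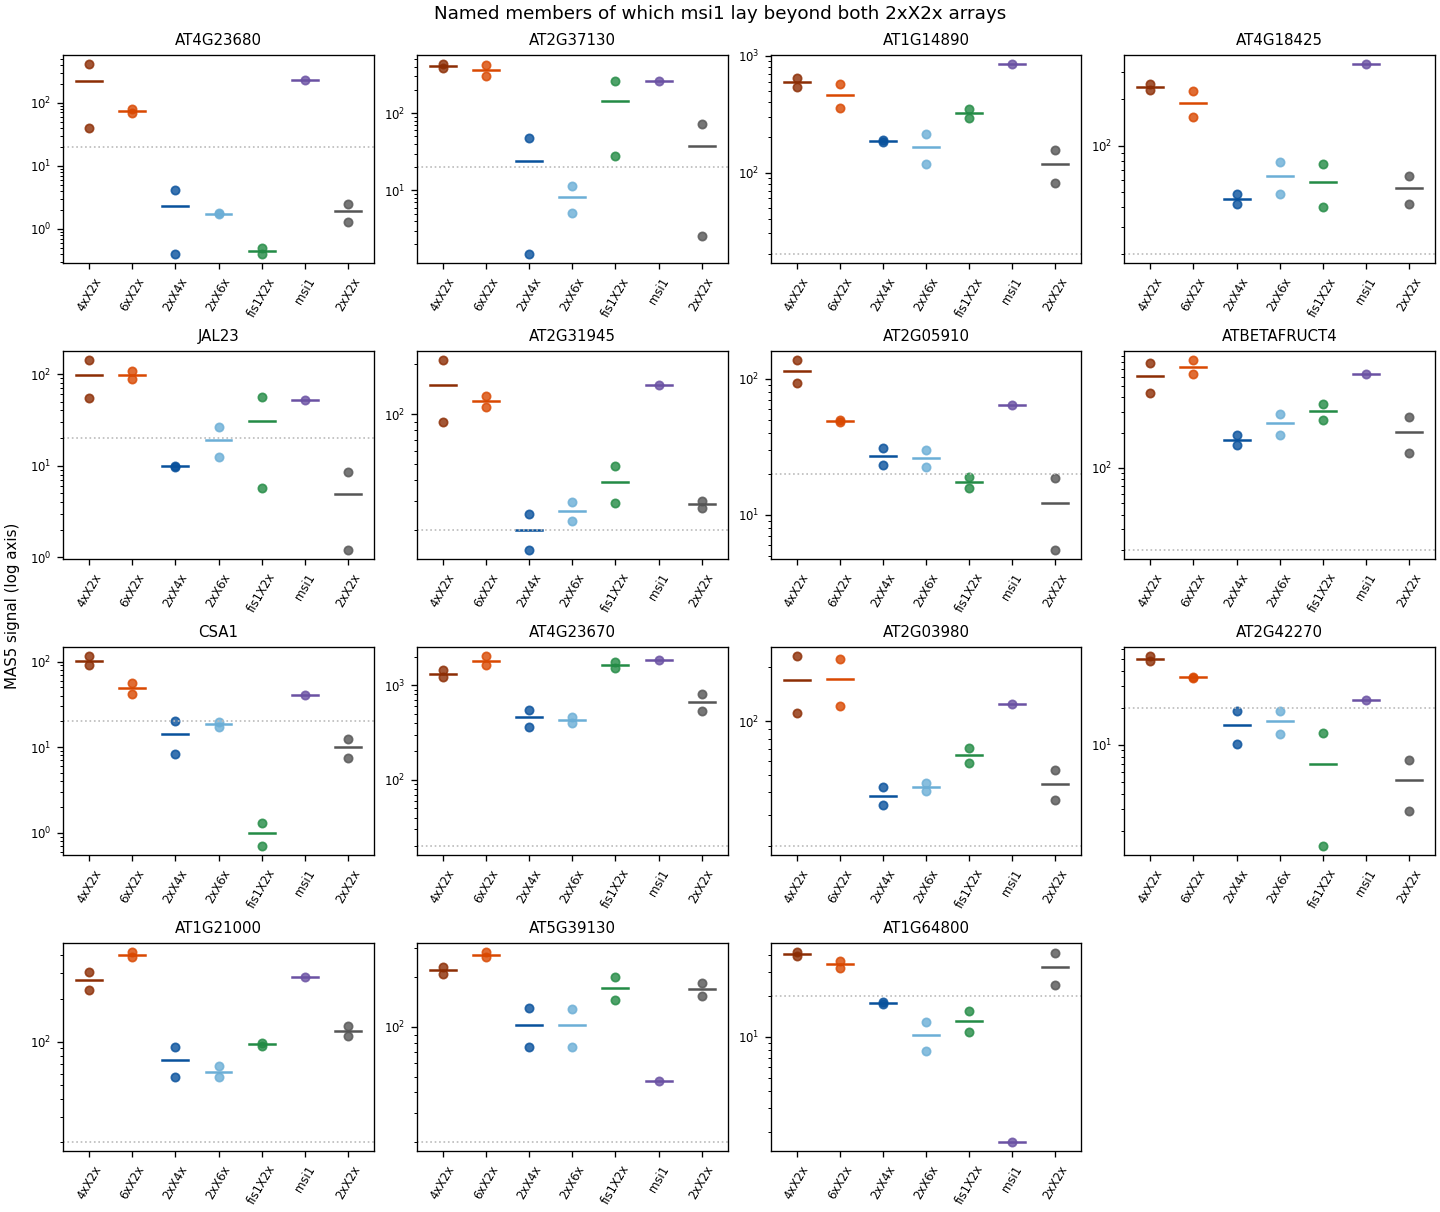
MAS5 signal (log axis) on every array of the 15 named members in which msi1 lay at least 1 on the log2 scale beyond both 2xX2x arrays; points are arrays, short lines are group means, and the dotted line is the floor of 20. In 13 panels msi1 lies above 2xX2x, and in AT5G39130 and AT1G64800 it lies below.

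Not every member followed this order. AT5G39130, a germin-like protein of the cell wall, had 46.9 in msi1, against 155.3 and 186.0 in 2xX2x, and 75.6 to 131.0 on the paternal-excess arrays. AT1G64800 had 1.7, against 41.0 and 24.0. AT5G39130 was thus dimmer in msi1 than on any array of the crosses. The AT1G64800 signal in msi1 is under the floor of 20, as are its paternal-excess and fis1X2x signals. The jasmonate-signalling factor MYC4 had 52.8 in msi1, against 108.4 and 55.6 in 2xX2x, and 236.0 to 266.4 with maternal excess. MFT had 18.8, against 12.8 and 28.7, and the mitochondrial ribosomal protein gene AT3G01740 had 59.4, against 61.6 and 77.2. These 3 genes therefore had an msi1 signal near or below that of 2xX2x.

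The brightest named members differed among themselves too. The fis1X2x and msi1 differences share the 2xX2x arrays and are given side by side. UGT88A1, a glycosyltransferase that attaches sugar to small phenolic molecules, had 371.9 in msi1 and 403.0 and 313.6 in fis1X2x, against 250.8 and 120.3 in 2xX2x. AT4G37550 had 474.8 in msi1 and 437.2 and 306.9 in fis1X2x, against 286.3 and 469.3 in 2xX2x, which overlap.

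The remaining named members of known families were the GRAS family regulator SCL1, the second GDSL lipase AT1G54790, the reductase AT4G27250 and the acyl ligase-like AT1G20490. SCL1 had 109.7 to 143.4 with maternal excess, 43.4 and 66.3 in fis1X2x, 110.7 in msi1 and 61.2 and 72.1 in 2xX2x, so that msi1 and maternal excess were close. The other 3 had log2 differences of msi1 minus 2xX2x of 0.66, 0.01 and 0.69. All 46 named members had a median of 0.84 and all 52 unnamed of 0.61.

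The unnamed members held patterns of the same kinds. Probe set 263825_at had 388.2 in msi1, against 40.3 and 84.2 in 2xX2x, and 190.5 to 267.1 with maternal excess, so that msi1 was the brightest array. Probe set 258434_at had 17.5 in msi1, against 74.2 and 69.1 in 2xX2x, while its maternal-excess signals were 1110.5 and 1299.2 in 4xX2x and 273.0 and 456.5 in 6xX2x. Probe set 265644_at had 10.9 in msi1, against 55.2 and 53.6 in 2xX2x, and 2087.7 and 1334.8 in 4xX2x beside 357.1 and 168.8 in 6xX2x. The pair 258434_at and 265644_at thus share with MFT a signal that was bright in 4xX2x, lower in 6xX2x and dim in msi1. Probe set 259058_at had 590.5 to 1160.9 with maternal excess and 228.3 to 244.3 with paternal excess, and was near the paternal level elsewhere, with 256.2 and 170.1 in fis1X2x, 232.3 in msi1 and 256.0 and 309.2 in 2xX2x.

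By position, 45 members could be placed. Chromosomes 1 and 4 held 13 each, chromosome 2 held 10, chromosome 3 held 5 and chromosome 5 held 4. The members' shares on chromosomes 1 to 5 were 28.9%, 22.2%, 11.1%, 28.9% and 8.89%. Those of all placed probe sets above the filter were 31.9%, 13.7%, 19.0%, 13.4% and 22.0%. The shares are a description of the probe sets with a gene name.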

How the data were processed

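The authors deposited linear signal intensities made with MAS5, without detection calls, scaled by them to a common trimmed mean. The table held 22810 probe sets, of which 64 controls were left out. The number of arrays limits the precision, since a spot has no depth. Signals were transformed as log2(signal + 7.4), the 20th percentile of all signals, and probe sets above an array's 40th percentile on at least 2 arrays were kept (15982). All 98 members passed, which the rule's bright arrays made likely. One mean per group was fitted to the 12 replicated arrays with limma 3.58.1 in R 4.3.3 (eBayes with trend, 6 residual and 4.9 prior degrees of freedom), tested on simulated data, two-sided, with Benjamini-Hochberg adjustment and a threshold of 0.05. The spread thus includes the 8 arrays that chose the members. Pooled plants were labelled biological replicates, and the p-values set a difference between crosses against the spread between such replicates, shared over the 6 crosses.

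Members and lists were chosen with earlier results of these data known. Named were the 12 members with the widest gap, those called in fis1X2x, the 5 highest and 5 lowest in msi1, the 5 nearest each level in 2xX2x, the 5 brightest, 4 on each side of the limit and members of shared families, plus members of a role group chosen after their values were seen. Symbols came from the platform annotation (43 members) and the study's locus table (3), and positions from the TAIR10.1 gene table. No sequences were used. Alternatives were other offsets, scalings, filters, variance models, a replicate block and leaving out each array. Counts and plots were made in Python 3.11.15 (numpy 2.4.6, matplotlib 3.10.9, pandas 2.3.3).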

Additional observations from a re-analysis of the deposited data

Results flagged for a closer look

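In 11 of the 98 members (11.2%, against 9.22% of all probe sets above the filter), both fis1X2x arrays lay on one side of both 2xX2x arrays and the msi1 array on the other. The difference between the contrasts was not tested, msi1 has 1 array, and both contrasts share the 2xX2x arrays. In AT1G21000 the log2 difference from 2xX2x was 1.20 in msi1 and -0.29 in fis1X2x. In PIP it was 0.96 in msi1 and -0.46 in fis1X2x, and in AT1G52720 it was 0.69 in msi1 and -0.28 in fis1X2x. In the unnamed probe set 259616_at it was 0.40 in msi1 and -1.36 in fis1X2x, of which -1.36 passed limma's threshold. In 258183_at it was 0.97 in msi1 and -0.46 in fis1X2x, and in 254657_s_at it was 0.97 in msi1 and -0.32 in fis1X2x. The other 5 had fis1X2x signals under 20, where signals have no firm order. The differences were 0.50 in msi1 and -0.91 in fis1X2x for AT1G12400, 0.80 in msi1 and -1.20 in fis1X2x for AT3G61930, 1.49 in msi1 and -1.03 in fis1X2x for CSA1, 4.66 in msi1 and -0.24 in fis1X2x for AT4G23680, and 0.65 in msi1 and -0.51 in fis1X2x for 254053_s_at.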

How the results depend on the processing

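The count of members called in fis1X2x against 2xX2x was the least stable result. It was 8 (3 higher, 5 lower), and 1 (0 higher, 1 lower) when the 4 compared arrays were fitted alone, where 136 probe sets were called in all, against 348. Leaving out each array in turn gave 1 to 8 calls, 0 to 3 higher and 1 to 6 lower, with the fewest, 1 call, without fis1X2x replicate 2. The count was 4 if the other fis1X2x array was dropped, 3 without 2xX2x replicate 2, and 5 if its partner or either 2xX4x array was dropped. A cross left with a lone array took its spread from the rest. The cause was not tested beyond the smaller number of arrays. With the replicate number as a block there were 6 calls. The numbers share no stated batch. The deviations of same-numbered arrays correlated from -0.237 to 0.412 over 15 pairs of crosses, and over 0.1 in 6. These mixed values cannot settle whether same-numbered arrays belong together. The median fis1X2x difference ran from -0.23 to 0.11 when 1 array was left out, -0.23 without fis1X2x replicate 1 and also without 2xX2x replicate 1. The count of members with msi1 above 2xX2x was 21 against both 2xX2x arrays, and 35 without 2xX2x replicate 1 and 39 without 2xX2x replicate 2, where it needs to exceed 1 array only (7.08% and 9.85% of all probe sets exceeded 2xX2x replicate 1 and replicate 2). Other scales gave 19 to 25. The group held 169 probe sets at a ratio of 1.3 and 34 at a ratio of 2. It held 108 to 204 when 1 array was left out, which can only add probe sets. The largest counts were 204 without 4xX2x replicate 2 and 197 without 2xX6x replicate 2. The median msi1 difference was 0.55 to 0.83 under all alternatives run for it. The median place of msi1 was 0.58 to 0.62, above those of fis1X2x (0.02 to 0.19) and 2xX2x (0.06 to 0.23), whose own order turned with quantile normalization and median centring (0.17 in fis1X2x, 0.14 in 2xX2x in both), without fis1X2x replicate 2 (0.19 in fis1X2x, 0.15 in 2xX2x) and without 2xX2x replicate 2 (0.10 in fis1X2x, 0.06 in 2xX2x).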
